A study of Mus musculus with 2 samples.

Results

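The genes of glutathione, glucuronide and sulfate conjugation were described in neonatal mouse adrenal gland. The members were all protein-coding genes of the GENCODE M21 annotation whose symbol names a cytosolic or mitochondrial glutathione transferase (Gst of the alpha, kappa, mu, omega, pi, theta and zeta families), a UDP-glycosyltransferase (Ugt) or a sulfotransferase (Sult). This rule took 65 of the 55536 annotated genes and of the 22028 protein-coding ones, namely 22 Gst, 22 Ugt and 21 Sult genes. Total RNA of adrenal gland was sequenced from male mice at postnatal day 10, with 300 ng of RNA and ERCC spike-ins (synthetic transcripts added in known amounts) per library. The mice were B6CASTF1/J, first-generation hybrids of the inbred strains C57BL/6J and CAST/EiJ, with no treatment or engineered allele named. The series holds 1 group with 2 libraries, called biological replicates 1 and 2, so no condition was compared with another and no test exists. The labels number the animals 03 and 04 in one field, give 03 for both in another and carry a single donor identifier, so the tables cannot show whether the libraries come from different animals.

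Conjugation is the step in which a cell attaches a polar group to a reactive or fat-soluble molecule so that it can be exported. Glutathione transferases add the tripeptide glutathione to electrophiles, UDP-glycosyltransferases add a sugar, mostly glucuronic acid from UDP-glucuronate, and sulfotransferases add sulfate from the activated donor PAPS. Liver is the classical site of all these reactions, while in the adrenal cortex the same enzyme families can meet lipid peroxides, hydroxysteroids and, in the medulla, catecholamines.

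The deposited gene tables held 36982665 expected counts in replicate 1 and 38984236 in replicate 2, an expected count being the estimated number of reads of a gene after reads with several possible origins are shared out. Levels are given as TPM, a unit in which all entries of a library sum to the same total and which is corrected for transcript length and so allows genes to be compared with each other. Paired values are given in the order replicate 1, replicate 2. Ratios between libraries are folds of replicate 2 over replicate 1, from expected counts scaled with TMM, and their 95% intervals are exact binomial ones that cover counting error only. The adrenal cortex markers were high in both libraries, with a median of 597 TPM over 9 genes in replicate 1 and 505 TPM in replicate 2, and all 9 were lower in replicate 2 at folds of 0.543 to 0.941. The 10 hepatocyte markers were also present, with a median of 85.8 and 257 TPM, and all 10 were higher in replicate 2, Cps1 at a fold of 1.68 and the other 9 at folds of 2.85 to 3.86. Among them Alb, serum albumin, stood at 2046 and 6173 TPM. These hepatocyte transcripts move with many of the ratios below, and their part in any of them was not tested. In bulk tissue, fewer cells of a type and less RNA per cell cannot be told apart.

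Of the 65 conjugation genes, 33 reached 1 TPM in both libraries, a rate near that of all protein-coding genes, of which 56.7% did. The count was 34 in replicate 1 alone and 41 in replicate 2 alone. Glutathione transferases carried most of the conjugation transcripts. Their summed level was 387 and 484 TPM (436 ± 68.4 TPM, SD, n = 2), which was 80.1% and 68.5% of the sum over all members. The sulfotransferases summed to 65.0 and 131 TPM (97.8 ± 46.4 TPM, SD, n = 2). The UDP-glycosyltransferases summed to 31.1 and 91.8 TPM (61.4 ± 42.9 TPM, SD, n = 2). The order Gst, Sult, Ugt was the same in both libraries. By genes detected, 17 of 22 Gst, 7 of 22 Ugt and 9 of 21 Sult genes reached 1 TPM in both libraries. No read was assigned in either library to 7 members: Ugt2a1, Ugt2a2, Sult1c1, Sult2a7, Sult3a1, Sult3a2 and Sult6b2. A count of 0 allows up to 3 reads in a library.

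**Figure D1:**
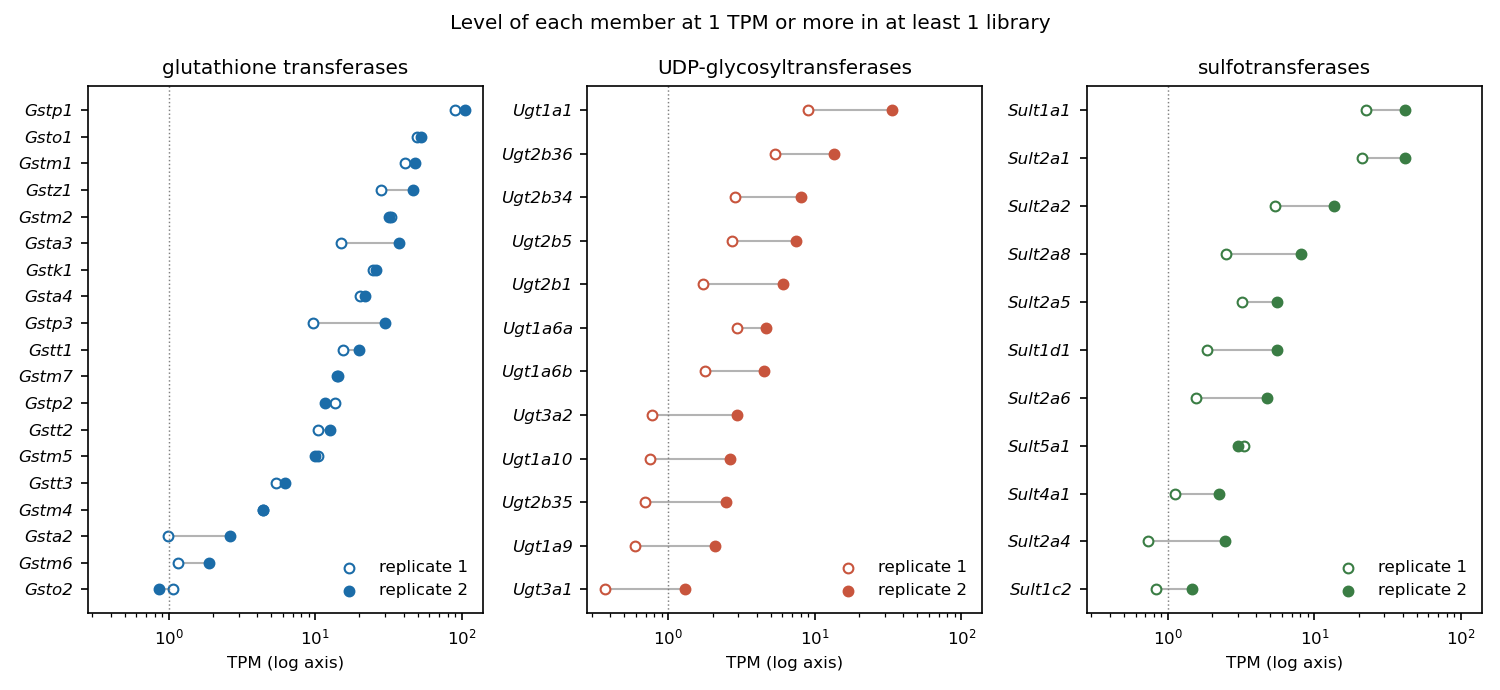
Level of each conjugation gene with at least 1 TPM in a library, in TPM on a log axis, by enzyme class; open circles are replicate 1, filled circles replicate 2, and the dotted line marks 1 TPM. Genes below the line in replicate 1 are drawn only because they pass it in replicate 2; over all 20 UDP-glycosyltransferases with more than 3 counts in a library, 18 were higher in replicate 2.

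Among the glutathione transferases, the pi family was the most abundant, with 113 and 147 TPM over 3 neighbouring genes on chromosome 19 (GRCm38, the mm10 build used throughout, chr19:4035407-4059569). Gstp1, the main pi-class enzyme of most mouse tissues, ranked highest of all 65 members in both libraries, at 89.4 and 105 TPM (97.2 ± 11.0 TPM, SD, n = 2). Gstp2 stood at 13.7 and 11.6 TPM (12.6 ± 1.48 TPM, SD, n = 2). A second quantification that the authors deposited gave Gstp2 74.7 and 50.9 TPM, 4.97 times as much. The median protein-coding gene stood 1.55 times higher in it, so the level of Gstp2 depends on the table. In counts, the second table gave Gstp2 1.22 times the main one. In replicate 1 it placed 22.4 TPM on Gstp2-204 and 26.5 TPM on Gstp2-205, retained-intron transcripts at 0 in the main table. The coding transcript Gstp2-201 was at 6.91 TPM there, against 9.92 TPM in the main table. Another coding transcript of Gstp2 went the other way in replicate 1, at 18.9 TPM in the second table against 0.67 TPM in the main one. A further coding transcript was at 0 TPM in the second table against 3.08 TPM in the main one. The excess of the second table was therefore not confined to retained-intron transcripts. Gstp3 stood at 9.57 and 29.9 TPM, a fold of 3.14 (95% counting interval 2.68 to 3.69). Replicate 2 was thus well above replicate 1 for Gstp3 and not for its neighbour Gstp2, whose fold was 0.940 with an interval from 0.792 to 1.11. Gstp1 and Gstp2 are near copies: their coding sequences of 630 bases differ at 12 positions, share an unbroken identical run of 300 bases, and are 98.1% identical. Their opening 60 coding bases are given 5′ to 3′ from the M21 transcripts, with the 6 differences in capitals. They were chosen as the stretch of that length with the most differences, so the rest of the coding sequence is more alike.
Gstp1: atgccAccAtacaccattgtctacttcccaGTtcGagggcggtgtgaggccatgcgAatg
Gstp2: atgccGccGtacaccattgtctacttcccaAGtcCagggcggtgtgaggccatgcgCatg
Of the 100-base windows of the main Gstp1 transcript, 52.8% also occur in another gene, against 63.5% for Gstp2 and 0% for Gstp3. The deposited posterior SD of the expected count, which measures the uncertainty from sharing reads out, was 2.93% of the count in replicate 1 and 2.22% in replicate 2 for Gstp1. For Gstp2 it was 18.6% and 18.2%. The level of Gstp2 is therefore the less certain of the pair, while Gstp3 had no read shared with another gene.

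The mu family followed with 104 and 110 TPM over 7 genes within 149 kb of chromosome 3 (chr3:107895821-108044894). Mu-class enzymes conjugate epoxides and other electrophiles. Gstm1 stood at 40.9 and 47.9 TPM (44.4 ± 4.96 TPM, SD, n = 2). Gstm2 stood at 33.1 and 31.7 TPM (32.4 ± 0.969 TPM, SD, n = 2). Gstm7 stood at 14.1 and 14.3 TPM. These 3 genes differed little between libraries, with folds of 1.20, 0.973 and 1.03, and only the interval of Gstm1 (1.13 to 1.29) lay clear of 1. Gstm5 was at 10.4 and 9.99 TPM, and Gstm4 at 4.36 and 4.42 TPM. Gstm6 was near the threshold at 1.16 and 1.87 TPM, and Gstm3 had 1.06 and 7.53 counts. The coding sequences of the mu genes are 69.6% to 85.9% identical over 15 pairs, and the main transcripts of Gstm1 and Gstm2 share 7.73% and 0.622% of their 100-base windows with other genes, so their counts are nearly unshared.

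Gsto1, an omega-class enzyme that reduces dehydroascorbate and protein-bound glutathione, ranked behind Gstp1 in both libraries. It stood at 49.6 and 53.0 TPM (51.3 ± 2.36 TPM, SD, n = 2; chr19:47854970-47864790), a fold of 1.07 with an interval from 1.00 to 1.14. Its neighbour Gsto2 was at 1.07 and 0.850 TPM. Gstk1, the kappa-class enzyme of mitochondria and peroxisomes, was at 24.7 and 25.8 TPM, a fold of 1.06. Both genes lay close between the libraries.

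The alpha family was split. Gsta4, which conjugates 4-hydroxynonenal from oxidised lipids, was at 20.0 and 21.8 TPM, a fold of 1.10 with an interval from 0.990 to 1.23. Gsta3, an alpha-class enzyme abundant in mouse liver, was at 14.9 and 37.3 TPM (26.1 ± 15.8 TPM, SD, n = 2; chr1:21240589-21265661), a fold of 2.50 with an interval from 2.27 to 2.76. This interval lay wholly above that of Gsta4. Gsta2 was at 0.990 and 2.63 TPM. Gsta1 had 0 and 10.6 counts, and the counting interval of its fold has a lower limit of 2.51. The main transcript of Gsta1 shares 78.8% of its 100-base windows with other genes, so its count is uncertain.

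Of the theta family, whose members act on small halogenated compounds and sulfate esters, Gstt1 was at 15.4 and 20.0 TPM, Gstt2 at 10.4 and 12.7 TPM and Gstt3 at 5.42 and 6.21 TPM. All 3 were somewhat higher in replicate 2, at folds of 1.33, 1.28 and 1.21. Gstt4 had 2 and 4 counts. Gstz1, the zeta-class enzyme that isomerises maleylacetoacetate in tyrosine breakdown, was at 28.1 and 46.5 TPM (37.3 ± 13.0 TPM, SD, n = 2; chr12:87147165-87164723). Its fold of 1.65 (interval 1.55 to 1.75) lay between those of Gsto1 and Gsta3 and clear of both.

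The UDP-glycosyltransferases were led by Ugt1a1, the enzyme that glucuronidates bilirubin. It stood at 9.04 and 33.8 TPM (21.4 ± 17.5 TPM, SD, n = 2), a fold of 3.79 with an interval from 3.49 to 4.13. In replicate 2 it ranked 8 among all members and in replicate 1 it ranked 17. Ugt1a1 lies in a locus of 9 members on chromosome 1 (chr1:88055388-88220002, plus strand), in which the genes start at different places and share their last exons. The sequences below join the last 30 bases of the preceding exon (lower case) to the 30 opening bases of the shared exon at chr1:88215044-88215175 (capitals). They are from the M21 transcripts and show where these transcripts become identical.
Ugt1a1: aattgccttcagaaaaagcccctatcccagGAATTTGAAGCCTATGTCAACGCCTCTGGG
Ugt1a6a: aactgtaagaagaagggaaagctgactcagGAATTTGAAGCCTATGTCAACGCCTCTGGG
Ugt1a6b: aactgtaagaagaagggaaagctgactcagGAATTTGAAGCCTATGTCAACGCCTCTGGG
Ugt1a9: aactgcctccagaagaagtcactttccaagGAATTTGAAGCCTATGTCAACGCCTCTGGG
Ugt1a10: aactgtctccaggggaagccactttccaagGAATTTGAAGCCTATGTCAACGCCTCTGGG
The capitals are the same in all 5, and Ugt1a6a and Ugt1a6b also share the 30 bases before them. In the main Ugt1a1 transcript, 57.2% of 100-base windows occur in another gene. In that of Ugt1a6a all 100% do, and all of them occur in annotated transcripts of Ugt1a7c. The posterior SD was 2.92% of the Ugt1a1 count in replicate 1 and 1.24% in replicate 2, and 18.8% and 9.80% of the Ugt1a9 count.

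The other genes of the locus were lower. Ugt1a6a, which glucuronidates small planar phenols, was at 2.92 and 4.66 TPM, a fold of 1.65 with an interval from 1.40 to 1.95. Its near copy Ugt1a6b was at 1.77 and 4.52 TPM, a fold of 2.59 (2.13 to 3.16). The 2 are 98.4% identical in coding sequence, so the split between them is uncertain. Transcripts of Ugt1a7c hold 100% of the windows of the main Ugt1a6a transcript and 71.5% of those of Ugt1a6b. The split with Ugt1a7c is thus uncertain as well. Ugt1a10 was at 0.750 and 2.64 TPM, and Ugt1a9 at 0.590 and 2.09 TPM, both over 3-fold higher in replicate 2. Ugt1a7c stayed below 1 TPM in both libraries, and so did Ugt1a2, Ugt1a5 and Ugt1a8. Ugt1a2 and Ugt1a5 are the members of the locus with fewer counts in replicate 2, at 6.31 and 5 counts for Ugt1a2 and 19.4 and 12.7 counts for Ugt1a5.

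The Ugt2b genes, whose products glucuronidate steroids, bile acids and drugs, lie together on chromosome 5 (chr5:86889767-87591594, with Ugt2a and Sult1 genes in the same stretch). Ugt2b36 was at 5.35 and 13.6 TPM, a fold of 2.57 (2.27 to 2.92). Ugt2b34 was at 2.84 and 8.05 TPM, a fold of 2.88 (2.52 to 3.29). Ugt2b5 was at 2.70 and 7.46 TPM, a fold of 2.80 (2.35 to 3.35). These 3 genes were higher in replicate 2 by nearly equal factors, and their intervals overlap. Ugt2b1 was at 1.73 and 6.03 TPM, a fold of 3.53 (2.95 to 4.24), and Ugt2b35 at 0.690 and 2.46 TPM, a fold of 3.64 (2.84 to 4.70). Ugt2b37 and Ugt2b38 had under 21 counts in each library. Ugt2b1, Ugt2b35 and Ugt2b36 had no shared 100-base window and no read shared out in the main table.

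Ugt3a2 and Ugt3a1, which use sugars other than glucuronic acid, lie side by side on chromosome 15 (chr15:9276888-9370955). Ugt3a2 was at 0.770 and 2.95 TPM, a fold of 3.84 (2.90 to 5.16), and Ugt3a1 at 0.370 and 1.29 TPM, a fold of 3.55 (2.33 to 5.57). Ugt8a, which makes galactosylceramide for myelin and is no drug-conjugating enzyme, had 6 and 12 counts.

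The sulfotransferases were led by 2 genes, at nearly equal level in the main table. Sult1a1, the phenol sulfotransferase, was at 22.4 and 41.4 TPM (31.9 ± 13.4 TPM, SD, n = 2; chr7:126672865-126676432), a fold of 1.88 with an interval from 1.74 to 2.04. Sult2a1, of the family that sulfates hydroxysteroids and bile acids, was at 21.1 and 41.2 TPM (31.2 ± 14.2 TPM, SD, n = 2; chr7:13796246-13837409), a fold of 1.98 with an interval from 1.81 to 2.17. Sult1a1 was the higher by a small margin in each library. In the second table the margin was wider, with Sult1a1 at 35.6 and 59.5 TPM and Sult2a1 at 20.9 and 36.5 TPM.

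Sult2a1 belongs to a cluster of 8 members in 870 kb of chromosome 7 (chr7:13623967-14494230), summing to 35.0 and 76.4 TPM. Sult2a2 was at 5.35 and 13.5 TPM, a fold of 2.57 (2.08 to 3.17). Sult2a8 was at 2.47 and 8.15 TPM, a fold of 3.86 (3.17 to 4.73). Sult2a5 was at 3.19 and 5.59 TPM, a fold of 1.78 (1.41 to 2.28). The folds of the cluster were not uniform: the interval of Sult2a8 lay above those of Sult2a1 and Sult2a5. Sult2a6 was at 1.56 and 4.72 TPM, and Sult2a4 at 0.730 and 2.43 TPM, both over 3-fold higher in replicate 2 on a mean of under 100 counts. Sult2a3 was at 0.640 and 0.760 TPM. The genes of the cluster are close relatives; Sult2a1 and Sult2a5 differ at 44 of 855 coding bases. The second table counted several genes of this family lower, as given further on, and the reason was not tested. A stretch of 60 bases, coding bases 379 to 438 of each M21 transcript, shows 7 of these 44 differences in capitals. It was chosen as the stretch of that length with the most differences.
Sult2a1: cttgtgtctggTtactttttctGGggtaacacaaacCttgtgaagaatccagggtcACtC
Sult2a5: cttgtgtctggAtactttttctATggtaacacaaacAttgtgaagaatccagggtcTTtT
Of the remaining sulfotransferases, Sult1d1, which sulfates catecholamines and other amines, was at 1.84 and 5.52 TPM, a fold of 2.68 (2.22 to 3.24). Sult4a1, known mainly from brain, was at 1.11 and 2.22 TPM, a fold of 2.07 (1.60 to 2.69). Sult5a1 was at 3.29 and 2.99 TPM, with 104 counts in each library and a fold of 1.00 (0.755 to 1.33). Sult5a1 was thus the single sulfotransferase averaging 100 or more counts whose interval holds 1. Sult1c2 was at 0.830 and 1.46 TPM. The enzymes known for sulfating oestrogens (Sult1e1), cholesterol and pregnenolone (Sult2b1) and thyroid hormones (Sult1b1) were all below 0.300 TPM in both libraries, at 10 and 12, 4 and 4, and 5 and 13 counts.

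Set side by side, a larger share of these genes than of all protein-coding genes lay apart between the libraries. Of the 65 members, 35 averaged 100 or more expected counts over the libraries (called well counted here), and 16 of them were more than 2-fold apart, against 4.62% of the 12504 protein-coding genes that passed the same minimum. All 16 were higher in replicate 2, the direction in which 4.53% of those genes passed, and none in replicate 1, where 0.096% did. By class, 2 of 16 Gst genes (Gsta3 and Gstp3), 10 of 11 Ugt genes (all but Ugt1a6a) and 4 of 8 Sult genes (Sult1d1, Sult2a2, Sult2a8 and Sult4a1) were among them. The counting interval lay wholly above a fold of 2 for 15 of the 16, the exception being Sult4a1. Among members with more than 3 counts in a library, 52 of 57 were higher in replicate 2, against 52.8% of protein-coding genes. The 52 include Sult5a1 and Sult2b1, whose counts were equal and whose folds of 1.00 come from the scaling alone.

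The median fold over these 57 genes was 1.80 (0.85 on the log2 scale, and 0.84 with members at 0 counts taken at their bound), beside 0.01 on the log2 scale for all 16425 protein-coding genes with as many counts. It was 0.27 for the Gst class, 1.43 for the Ugt class and 0.99 for the Sult class on the log2 scale. On the fold scale, the 16 well-counted Gst genes ranged from 0.940 to 3.14 with a median of 1.15, the 11 Ugt genes from 1.65 to 3.84 with a median of 3.47, and the 8 Sult genes from 1.00 to 3.86 with a median of 2.03. The classes overlap in these ranges. A list of 24 members known from mouse liver had a median of 1.31 on the log2 scale, and 23 of the 24 were higher in replicate 2. The exception was Ugt1a5. The 33 members outside that list with more than 3 counts in a library had a median of 0.77, and 29 were higher in replicate 2. The 16 Gst genes among these 33 had a median of 0.21. On the list, Gst genes stood at 0.09 (Gstk1), 0.26 (Gstp1), 0.27 (Gstm1), 0.42 (Gstt1), 0.72 (Gstz1) and 1.32 (Gsta3). Most Ugt genes are on the list and most Gst genes outside it. The medians of the list and of the other members therefore also differ in class mix. Of the well-counted genes, 11 of 18 on the list and 5 of 17 outside it were over 2-fold higher in replicate 2.

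**Figure D2:**
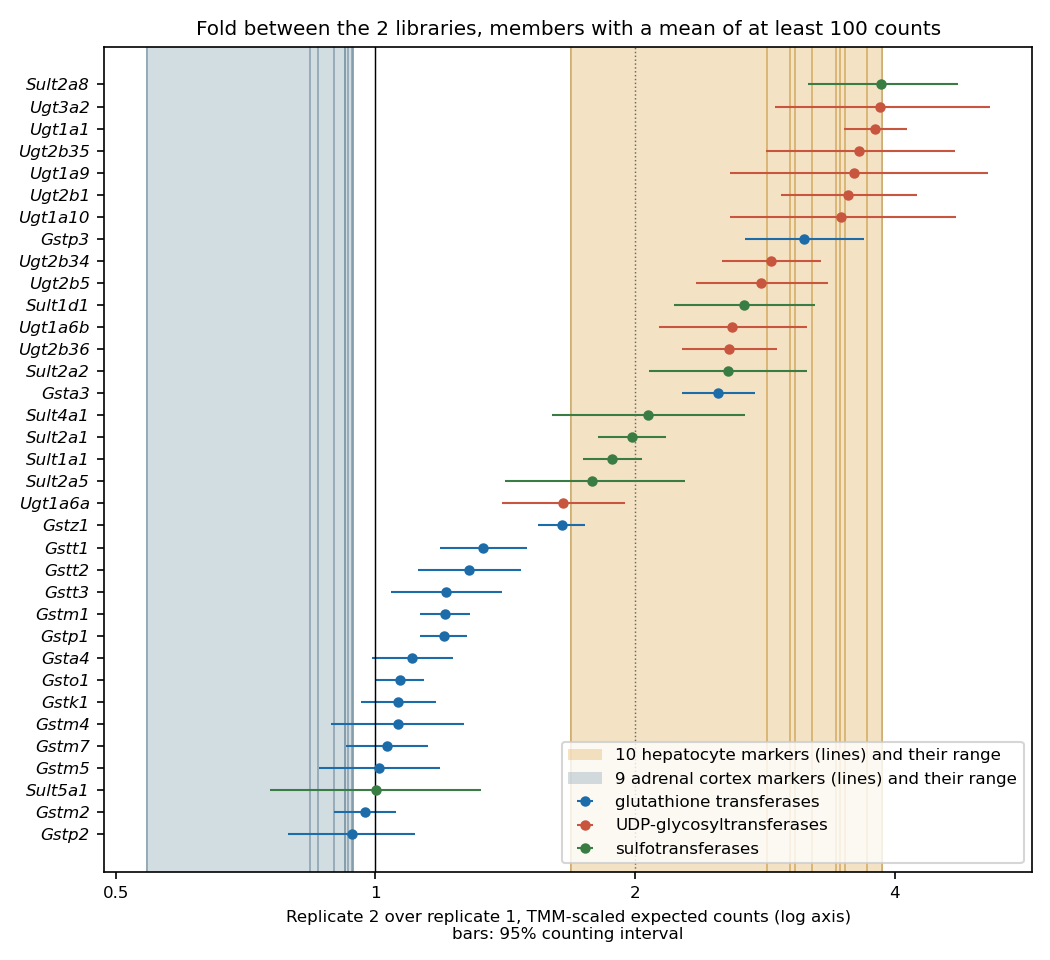
Fold of replicate 2 over replicate 1 on a log axis for the 35 conjugation genes that averaged 100 or more expected counts, with 95% counting intervals; vertical lines are the 10 hepatocyte and 9 adrenal cortex markers and shaded bands their ranges. Of the 35 genes, 19 lie in the hepatocyte marker range, or 9 without its lowest marker, and 1 (Gstp2) in the cortex marker range. The 6 skeletal muscle markers, not drawn, had folds of 1.85 to 2.94, inside the hepatocyte band.

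The folds of the conjugation genes can be placed against the markers measured in the same libraries. The hepatocyte range of 1.68 to 3.86 held the fold of 2 of 16 Gst, 10 of 11 Ugt and 7 of 8 Sult genes, and 5.67% of the 12504 well-counted protein-coding genes. These counts rest on Cps1, whose fold alone lies below 2.85. Without it, a choice made after seeing the data, the range held 1 Gst, 7 Ugt and 1 Sult gene (Sult2a8), and 1.53% of protein-coding genes. All 6 skeletal muscle markers, at folds of 1.85 to 2.94, lay inside the full hepatocyte range. That range is therefore not particular to hepatocyte markers. The cortex range of 0.543 to 0.941 held 1 Gst gene and no gene of the other classes, and 15 of the 35 genes lay between the ranges, 13 of them Gst genes. The summed Ugt level was 36.2% of the hepatocyte marker median in replicate 1 and 35.6% in replicate 2. Against the skeletal muscle marker median it was 83.5% and 89.4%, so neither proportion moved much between libraries. The summed Sult level was 75.8% and 50.7% of the hepatocyte marker median, and the summed Gst level 452% and 188% of that median. Against the median cortex marker, the Gst sum was 64.8% in replicate 1 and 95.8% in replicate 2. Of the 10 hepatocyte markers, none was at 0 counts and 9 were over 2-fold higher in replicate 2.

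Markers of some other tissues moved between the libraries as well, and their part in the ratios was not tested. All 6 skeletal muscle markers (median fold 2.58), all 5 bone and cartilage markers (54.9), all 5 macrophage markers (1.63), all 6 Schwann and sustentacular markers (1.42) and 4 of 5 fibroblast markers (1.37) were higher in replicate 2. The summed level of the bone and cartilage markers was 1.38 and 50.0 TPM, and that of the skeletal muscle markers 273 and 746 TPM. Medians nearer to 1 were those of the endothelial (1.02), brown adipocyte (1.01), adipocyte (1.07), erythroid (1.11) and X-zone markers (1.19), although all 4 erythroid markers were higher in replicate 2. All 7 chromaffin markers were lower in replicate 2 (median 0.850). Markers of kidney, another site of conjugation, were low: Kap, Slc12a1, Slc34a1 and Umod had 0 counts in both libraries, and all 6 kidney markers summed to 0.810 and 0.460 TPM. Of the 4 intestinal markers, Cdx2 had 0 counts in both libraries, and they summed to 2.63 and 6.79 TPM. The 3 olfactory markers (0.230 and 0.570 TPM) and the 4 Sertoli and testis markers (1.97 and 3.38 TPM) were low in both libraries.

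The genes that supply, complement or export the conjugates were listed by role. Their counts over 2-fold apart stand beside 4.62% of all well-counted protein-coding genes. In lists this short, a count of 0 is near that share. Of 19 genes of glutathione synthesis and recycling, 16 reached 1 TPM in both libraries and none of the 14 well-counted ones was over 2-fold apart (median fold 1.21). Gclc, the catalytic subunit of the rate-limiting enzyme of glutathione synthesis, was at 13.0 and 18.7 TPM, and Gclm, its modifier subunit, at 26.6 and 33.8 TPM. Of 12 membrane-bound and other glutathione transferases, none of 9 was over 2-fold apart (median 1.03). Mgst1, the microsomal glutathione transferase, was at 235 and 287 TPM, above every one of the 65 members in both libraries. Of 9 glutathione peroxidases and peroxiredoxin genes, none of 6 was over 2-fold apart (median 1.06). Gpx4, which reduces lipid peroxides, was at 391 and 381 TPM, and Gpx1 at 138 and 159 TPM.

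The genes that make the donor sugar and the donor sulfate lay closer between the libraries than the Ugt and Sult genes. Of 9 genes of UDP-glucuronate supply and reversal, none of 7 was over 2-fold apart, and the median fold was 1.00. Ugp2, which makes UDP-glucose, was at 28.7 and 34.5 TPM, and Ugdh, which oxidises it to UDP-glucuronate, at 15.3 and 15.9 TPM. Of 14 matched genes of sulfate activation and removal, 1 of 12 was over 2-fold apart (Slc26a1, a sulfate transporter, 2.10), and the median fold was 1.05. Papss1, a PAPS synthase, was at 14.7 and 14.0 TPM. Papss2, the other PAPS synthase and the one known for supporting steroid sulfation, was at 7.43 and 11.5 TPM, a fold of 1.53 (1.40 to 1.66).

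Of 7 conjugate efflux transporters, 2 of 7 were over 2-fold higher in replicate 2: Abcc2, which exports conjugates into bile, at 3.63 and 8.29 TPM, and Abcc6 at 2.28 and 4.50 TPM. Abcg2 (15.6 and 17.0 TPM) and Abcc5 (13.5 and 14.5 TPM) were more abundant and within 2-fold. Of 20 regulators and NRF2 targets, 3 of 17 were over 2-fold higher in replicate 2, all of them nuclear receptors prominent in liver. Hnf4a was at 5.40 and 17.2 TPM, Nr1i3 (CAR) at 2.10 and 9.77 TPM, and Nr1i2 (PXR) at 1.63 and 4.70 TPM. Nfe2l2, which encodes NRF2, an inducer of many Gst genes, was at 28.1 and 31.2 TPM, a fold of 1.14, and its target Nqo1 was at 1.88 and 1.37 TPM.

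**Figure D3:**
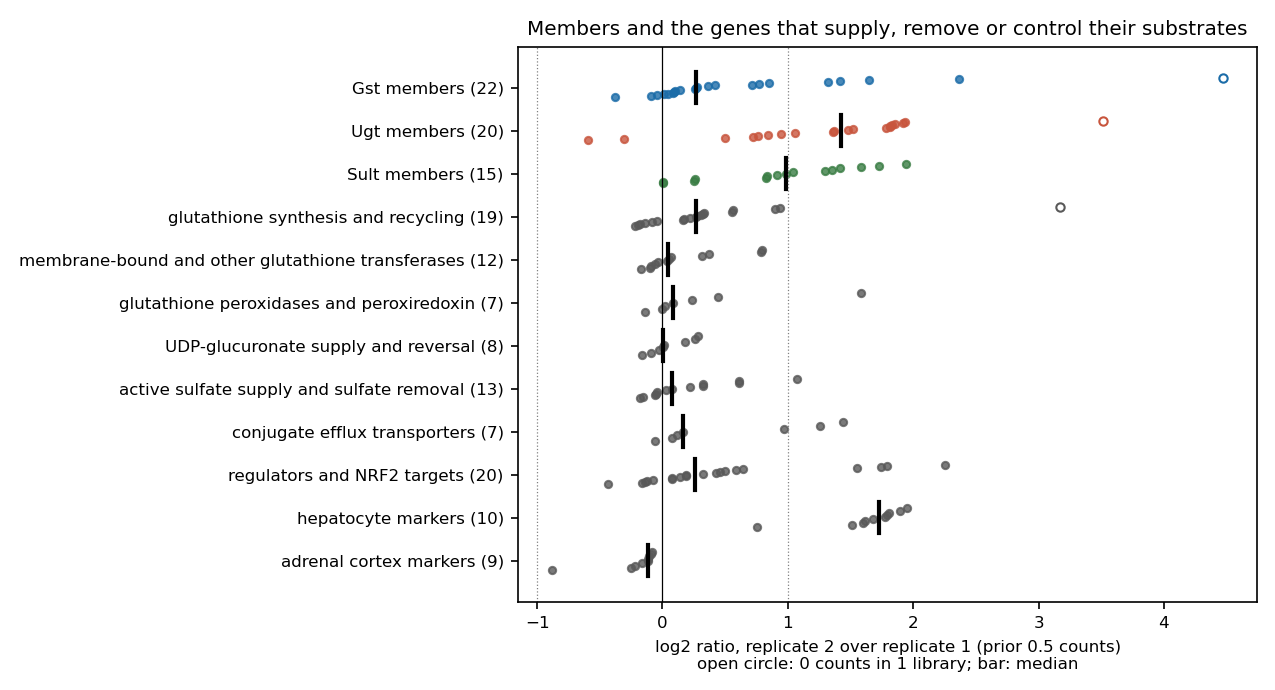
Log2 ratio of replicate 2 over replicate 1 for conjugation genes by class, for genes of each supporting list and for hepatocyte and adrenal cortex markers, with the number of genes in brackets; each point is a gene with more than 3 counts in a library, open circles have 0 counts in 1 library, and bars are medians. The Ugt and Sult log2 medians of 1.43 and 0.99 lie to the right of all 7 supporting lists, whose log2 medians run from 0.01 to 0.27.

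The second transcript quantification gave a different level for some members. Summed per gene and over both libraries, its counts were 1.08 times those of the main table at the median of 12500 protein-coding genes, with the central 95% between 0.789 and 1.22. For Sult2a1 the ratio was 0.546, for Sult2a2 0.628, for Sult2a4 0.657, for Sult2a3 0.592 and for Sult2a5 0.780, all below that range. Sult2a6 (0.953) and Sult2a8 (0.985) lay inside it. For Ugt2b37 the ratio was 0.0936, and for Gstp2 it was 1.22. The Sult2a genes named were thus counted lower by the second table, while their folds between libraries moved less, from 1.98 to 1.91 for Sult2a1 and from 2.57 to 2.80 for Sult2a2.

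**Figure D4:**
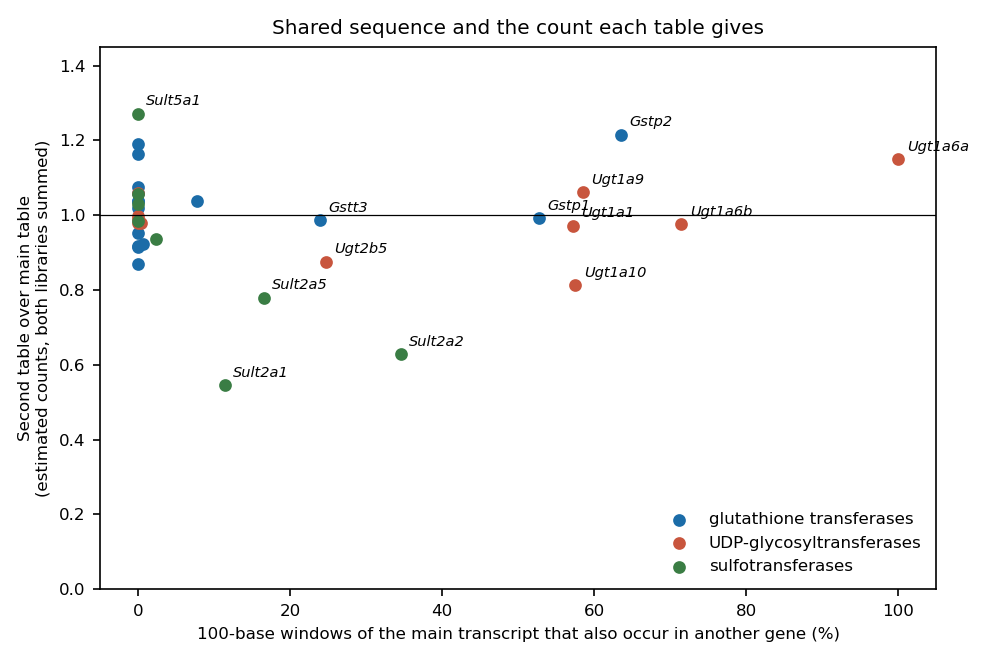
Estimated counts of the second table over expected counts of the main table (both libraries summed) against the percentage of 100-base windows of a gene's main transcript that occur in another gene, for the 35 conjugation genes with at least 100 counts. Sult2a1, at 11.4% shared windows, has the lowest ratio of 0.546, and Ugt1a1, at 57.2%, lies near 1 at 0.973.

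The tables also differed within genes. The main table gave 40.8% of the Gstp1 level in replicate 1 and 39.9% in replicate 2 to a retained-intron transcript that the second table listed at 0 in replicate 1. The second table instead placed 43.8 TPM in replicate 1 on another retained-intron transcript of Gstp1, which the main table listed at 0. For Gsto1 the main coding transcript held 68.3% of the gene's level in replicate 1 and 61.9% in replicate 2 in the main table. The second table gave that transcript 70.5 of the gene's 72.2 TPM in replicate 1 and 70.0 of 72.6 TPM in replicate 2. Ugt1a1 and Sult2a1 have a single transcript each in this annotation, so their levels do not depend on a split between isoforms of the same gene. A split between genes remains, since 57.2% of the Ugt1a1 windows and 11.4% of the Sult2a1 windows occur in other genes.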

How the data were processed

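Total RNA-seq of 2 adrenal gland libraries was analysed as a single group. Per the file headers and deposited notes, gene and transcript tables were made by the authors from transcriptome alignments (mm10, GENCODE M21), with the column names of RSEM, holding expected counts, TPM and, per transcript, the percent of the gene's level. The deposited second transcript table, with the column names of kallisto, came from the reads and an index and holds estimated counts and TPM. For the aligner, tools, versions and strand setting, the entry is: not given in the sources used here.

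Members and lists were chosen with earlier results of these data known. Genes were named if they were members with at least 1 TPM in a library, members over 2-fold apart, members at 0 counts, or among the 4 most abundant of a list; other members and list genes (among them Gclc, Papss2, Slc26a1 and the receptors) were named after their values were seen. The symbol Sts was not matched. Expected counts were scaled by TMM (edgeR 4.0.16); log2 ratios used a prior of 0.5 counts, and folds of single genes none. Fold intervals are Clopper-Pearson 95% intervals from the rounded, unscaled expected counts, whose limits were then divided by the TMM factor between the libraries. Where a library had 0 counts, 3 counts per library served as its floor. Such intervals and floors hold counting error alone, because they are set by the counts of these 2 libraries only. No molecular identifiers were read. The fold computation was tested on simulated counts.

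Transcript sequences came from GENCODE M21, and CAST/EiJ sequences of these genes were not compared. The value of a gene on one list is not reported here. A window of 100 bases was called shared when the same letters occur in a transcript of another gene. The alternatives were DESeq2 (1.42.0) size factors, library or spike-in totals as scaling, other thresholds and priors, the mean of a list, the second table, TPM rescaled to nuclear protein-coding genes, and each library alone. R 4.3.3 and Python 3.11.15 were used.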

Additional observations from a re-analysis of the deposited data

Results flagged for a closer look

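Among pseudogenes of these families, which the comparisons leave out, Gstm2-ps1, a processed pseudogene of a mu-class transferase, held 3.73 expected counts in replicate 1 and 5.89 in replicate 2, above the limit of 3 counts that a count of 0 allows. The other 6 family pseudogenes held at most 1.16 counts in a library.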

How the results depend on the processing

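The 33 members at 1 TPM in both libraries became 20 at 5 TPM. The second table raised the summed Gst level from 436 to 790 TPM, and TPM rescaled over nuclear protein-coding genes gave 1304 for Gst, 182 for Ugt and 291 for Sult, by construction of a smaller denominator. Each library alone gave 387 to 484 TPM for Gst, 31.1 to 91.8 for Ugt and 65.0 to 131 for Sult. Of the 16 members over 2-fold apart, 8 passed 3-fold, and 2 remained when a mean of at least 1000 counts was asked, where 9 members are tested. Scaling by library total or by spike-in total gave 15. In an alternative chosen after seeing the data, members with no read shared out, 9 of 19 were over 2-fold apart; there the log2 median was 0.14 for Gst and 1.81 for Ugt. The mean in place of the median gave 0.98 over all members, 0.69 for Gst and 1.11 for the liver list on the log2 scale. A minimum of 100 counts gave 1.78 for Ugt, and no filter gave 0.83 for Sult. Every class median stayed above 0 in all alternatives run. Gstm5 and Gstm7 changed sign under library-total and spike-in scaling, to between -0.06 and -0.01 on the log2 scale, and Sult5a1 also under the second table, to between -0.14 and -0.05. No paired analysis was possible because there is 1 group. The cause of these shifts was not tested. With 2 libraries, which may share an animal, the SD is itself poorly known, and members under 100 counts have wide intervals.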
